A study of Rattus norvegicus with 6 samples.

Results

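The 9 genes described here encode acute-phase proteins, their inflammatory relatives and a transcription factor that drives them: Lcn2, Lbp, Hpx, Hp, A2m, Cp, S100a8, S100a9 and Cebpb. They were followed in the left atria (LA) of 6 adult male Sprague-Dawley rats, each hybridized to 1 whole-transcript array. The 2 groups came in 3 pairs of rats: 3 rats underwent rapid atrial pacing (RAP) at a cycle length of 70 ms, and 3 underwent control pacing (Con) at 140 ms, both for 48 h. The labels only number the rats within each group, and RAP and Con rats of equal number are taken here as a pair. All 6 rats carried an electrode on the right atrium, had recovered from its implantation, and drank atenolol, a beta-blocker, and the ventricular rate was alike in the groups, so control pacing is itself pacing after surgery and not an unoperated state. Members were the probe sets whose only gene symbol is 1 of the 9 names. Each gene had exactly 1 such probe set, of 29214 on the array, and all 9 exceeded a log2 signal of 5 on at least 1 array, the study's filter for detection, as 11237 genes did. A2m passed that limit through 1 control atrium alone, so its difference is given without a test too. Lcn2, Lbp and Hpx had been chosen because they were lower with RAP in these same arrays, so their differences are given as a description, without a test. The other 5 were compared by limma with the pair as a block, and a gene counted as changed where its fold change exceeded 1.3 with an unadjusted p below 0.05, the study's own limits. Con 2 and Con 3 stood apart from the other atria, Con 2 in macrophage markers and Con 3 in ventricular and erythroid markers, as given with the markers, and the members' differences are also given without each.

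Acute-phase proteins are secreted ones whose synthesis rises within hours to days of injury, infection or surgery, mostly in the liver, when the cytokines IL-1 and IL-6 act through the transcription factors NF-kB, STAT3 and C/EBP. Many are also made outside the liver, by macrophages, fibroblasts, fat and epithelia. In the rat, alpha-2-macroglobulin (A2m) is a classical strong responder. Left atrial tissue holds cardiomyocytes, fibroblasts, endothelium, resident macrophages and an epicardial covering, and an array of the whole tissue cannot tell fewer cells of a type from less RNA per cell.

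Promoter windows were found in the RefSeq table (build GRCr8) for 5 of the 9 genes, namely Lcn2, Hpx, Cp, S100a9 and Cebpb, each covering 250 bases before and 50 after the gene start. The windows of 4 are shown 5′ to 3′ on the strand of the gene: those of Lcn2, Hpx and Cp, whose 3 RAP atria all lay under the 3 Con atria, and that of S100a9, whose groups overlapped. Cebpb also had no overlap between groups, and its window is described below without its sequence. Capitals mark matches on either strand to TTNNGNAA (C/EBP), TTCNNNGAA (STAT), GGG and CC with any 5 bases between them (NF-kB) or CTGGGAA, the core of an IL-6 response element known from rat A2m.
Lcn2, chr3:36081731-36082030, minus strand: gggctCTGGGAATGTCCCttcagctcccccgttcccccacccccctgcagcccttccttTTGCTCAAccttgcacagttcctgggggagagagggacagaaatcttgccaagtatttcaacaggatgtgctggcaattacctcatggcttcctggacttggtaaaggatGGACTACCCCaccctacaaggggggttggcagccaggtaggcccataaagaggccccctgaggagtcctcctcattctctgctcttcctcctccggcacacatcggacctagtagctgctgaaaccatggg
Hpx, chr1:169352106-169352405, minus strand: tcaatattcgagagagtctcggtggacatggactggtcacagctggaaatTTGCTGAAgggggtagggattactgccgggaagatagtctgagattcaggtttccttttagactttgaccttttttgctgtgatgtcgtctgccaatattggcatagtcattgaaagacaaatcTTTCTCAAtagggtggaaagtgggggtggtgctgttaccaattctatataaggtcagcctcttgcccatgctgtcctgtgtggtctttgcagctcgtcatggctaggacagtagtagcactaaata
Cp, chr2:104368420-104368719, plus strand: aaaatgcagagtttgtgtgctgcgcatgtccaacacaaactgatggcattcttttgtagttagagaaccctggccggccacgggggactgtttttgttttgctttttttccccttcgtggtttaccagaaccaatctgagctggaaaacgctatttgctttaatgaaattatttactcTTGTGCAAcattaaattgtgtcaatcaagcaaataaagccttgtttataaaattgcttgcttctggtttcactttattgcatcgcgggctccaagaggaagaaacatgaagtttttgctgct
S100a9, chr2:178490573-178490872, minus strand: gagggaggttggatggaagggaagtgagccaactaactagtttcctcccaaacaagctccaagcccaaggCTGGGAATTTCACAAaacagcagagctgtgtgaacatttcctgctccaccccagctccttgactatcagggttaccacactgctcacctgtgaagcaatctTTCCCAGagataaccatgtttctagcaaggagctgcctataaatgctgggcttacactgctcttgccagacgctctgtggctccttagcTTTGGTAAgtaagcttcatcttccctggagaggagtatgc
The Lcn2 window held 1 C/EBP match, TTGCTCAA, starting 191 bases before the gene start, and 3 NF-kB matches. Of these NF-kB matches 2 overlap each other and the CTGGGAA match, which starts 245 bases before the gene start. The Hpx window held 2 C/EBP matches, TTGCTGAA and TTTCTCAA, and that of Cp 1, TTGTGCAA, starting 72 bases before the start. The S100a9 window held 2 C/EBP and 2 CTGGGAA matches. The Cebpb window (chr3:176816755-176817054, plus strand) held 2 overlapping NF-kB matches and no C/EBP match. No STAT match was found in any of the 5. Among all 33469 rat promoter windows of that length, 41.3% held the C/EBP letters, 47.3% the NF-kB letters, 11.3% CTGGGAA and 8.87% the STAT letters, so the first 2 of these motifs are common in rat promoters.

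The 3 genes chosen for their lower signal with RAP were above all RAP atria in each control LA. Lcn2 encodes lipocalin 2, which binds bacterial siderophores and so withholds iron from microbes. Its log2 signal was 9.73, 7.11 and 8.51 in RAP 1, 2 and 3 and 11.09, 12.13 and 9.93 in Con 1, 2 and 3. The groups did not overlap, but only 0.19 separated the highest RAP atrium from the lowest Con atrium, and Lcn2 also varied widely within each group, with a range of 2.63 over the RAP atria and 2.20 over the Con atria. Within pairs 1, 2 and 3, RAP minus Con was -1.36, -5.02 and -1.42 on the log2 scale. The mean of these, -2.60, amounts to 6.07-fold lower with RAP, and was -1.39 without pair 2. The range of Lcn2 over the 6 atria, 5.02, was the distance between Con 2 and RAP 2, and so the size of its pair 2 difference.

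Lbp encodes lipopolysaccharide-binding protein, which hands bacterial lipopolysaccharide to CD14. Its log2 signal was 10.80, 10.76 and 10.56 in the RAP atria and 12.02, 12.64 and 11.48 in the Con atria. The RAP atria were close together (SD 0.13, n = 3) and the Con atria were not (SD 0.58, n = 3), with 0.68 between the groups. RAP minus Con was -1.21, -1.88 and -0.92 in pairs 1 to 3, a mean of -1.34, or 2.53-fold lower with RAP. Of the 3 chosen genes Lbp was the one whose pair differences varied least (SD 0.49, against 2.10 for Lcn2 and 1.51 for Hpx).

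Hpx encodes hemopexin, the plasma scavenger of free heme. It read 5.03, 4.94 and 5.19 in the RAP atria, close to the detection limit of 5, and 6.15, 8.55 and 6.08 in the Con atria. All Con atria were above all RAP atria by at least 0.88, and Con 2 stood 5.28-fold above the next highest atrium. RAP minus Con was -1.11, -3.61 and -0.88 in pairs 1 to 3, with a mean of -1.87 (3.65-fold lower with RAP) and of -0.997 without pair 2.

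Of the 5 genes tested, Cebpb was the only one past both limits. It encodes C/EBP beta, the transcription factor first known as the nuclear factor of IL-6. Its log2 signal was 7.71, 7.77 and 7.60 in the RAP atria and 8.17, 8.41 and 7.88 in the Con atria. The 2 groups did not overlap, with 0.10 between them, so RAP was lower in each of the 3 pairs, by differences of -0.46, -0.64 and -0.28. Cebpb fell by 0.46 on the log2 scale (SE 0.14, 95% interval -0.83 to -0.09, limma, unadjusted p = 0.025), which did not survive adjustment over all 19907 probe sets tested (adjusted p = 0.76). Leaving out 1 atrium and fitting without the pair ended the call for RAP 1, RAP 3, Con 1 or Con 2, with differences from -0.60 to -0.33 over all 6 such fits. Without Con 2 it was -0.33, with an unadjusted p of 0.077 in limma.

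Cp, which encodes ceruloplasmin, the copper-bearing ferroxidase of plasma, showed a smaller difference of the same form. Its log2 signal was 8.61, 8.69 and 8.64 in the RAP atria and 8.95, 9.65 and 8.84 in the Con atria. Here too no RAP atrium reached a Con atrium, by a margin of 0.15, and the RAP atria spanned only 0.08. RAP minus Con was -0.34, -0.95 and -0.20 in the 3 pairs and -0.50 on average (SE 0.20, 95% interval -1.01 to 0.01), just outside the limit (limma, unadjusted p = 0.054, adjusted p = 0.76). The difference was -0.25 without Con 2 (95% interval -0.57 to 0.07).

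Hp and A2m were near or below the detection limit in every atrium but Con 2. Hp encodes haptoglobin, which binds free hemoglobin, and read 4.91, 5.26 and 5.19 in the RAP atria and 4.86, 7.18 and 5.07 in the Con atria. Only Con 2 stood out, 3.79-fold above the next atrium, and the other 5 atria overlapped. RAP minus Con was 0.05, -1.92 and 0.12 in the 3 pairs (mean -0.58, SE 0.45, 95% interval -1.76 to 0.59, limma, unadjusted p = 0.25, adjusted p = 0.81). A2m, a protease inhibitor, read 4.72, 4.70 and 4.65 in the RAP atria and 4.74, 7.35 and 4.37 in the Con atria. It was above 5 in Con 2 alone, at least 5.10-fold over the detection limit, and the other 5 atria, all under the limit, have no order. Its pair differences were -0.02, -2.65 and 0.28, of which only that of pair 2 involves a detected value. Without Con 2 the mean difference of Hp turned positive, 0.15 (95% interval -0.26 to 0.56), and A2m had no detected value left.

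S100a8 and S100a9 encode the 2 subunits of calprotectin, a calcium- and zinc-binding protein abundant in neutrophils and monocytes. S100a8 read 3.96, 4.85 and 6.03 in the RAP atria and 4.17, 7.90 and 5.22 in the Con atria. S100a9 read 4.87, 6.50 and 7.93 in the RAP atria and 5.62, 9.07 and 6.95 in the Con atria. Both were highest in Con 2 and next highest in RAP 3, and the 6 values came in the same order for the 2 genes (Pearson r = 0.97, Spearman rho = 1.00 over 6 arrays). S100a8 was under the detection limit in RAP 1, RAP 2 and Con 1, so its order among these is not resolved, and rho rests partly on it. RAP minus Con was -0.21, -3.05 and 0.81 for S100a8 in pairs 1 to 3, so that pair 3 ran the other way. Likewise it was -0.74, -2.57 and 0.99 for S100a9. Neither difference passed: S100a8 averaged -0.82 (SE 0.76, limma, unadjusted p = 0.33, adjusted p = 0.83) and S100a9 -0.78 (SE 0.68, limma, unadjusted p = 0.31, adjusted p = 0.82). Without Con 2 they were 0.25 (95% interval -1.29 to 1.80) and 0.15 (95% interval -2.04 to 2.35), and without RAP 1 that of S100a9 was 0.0066.

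**Figure D1:**
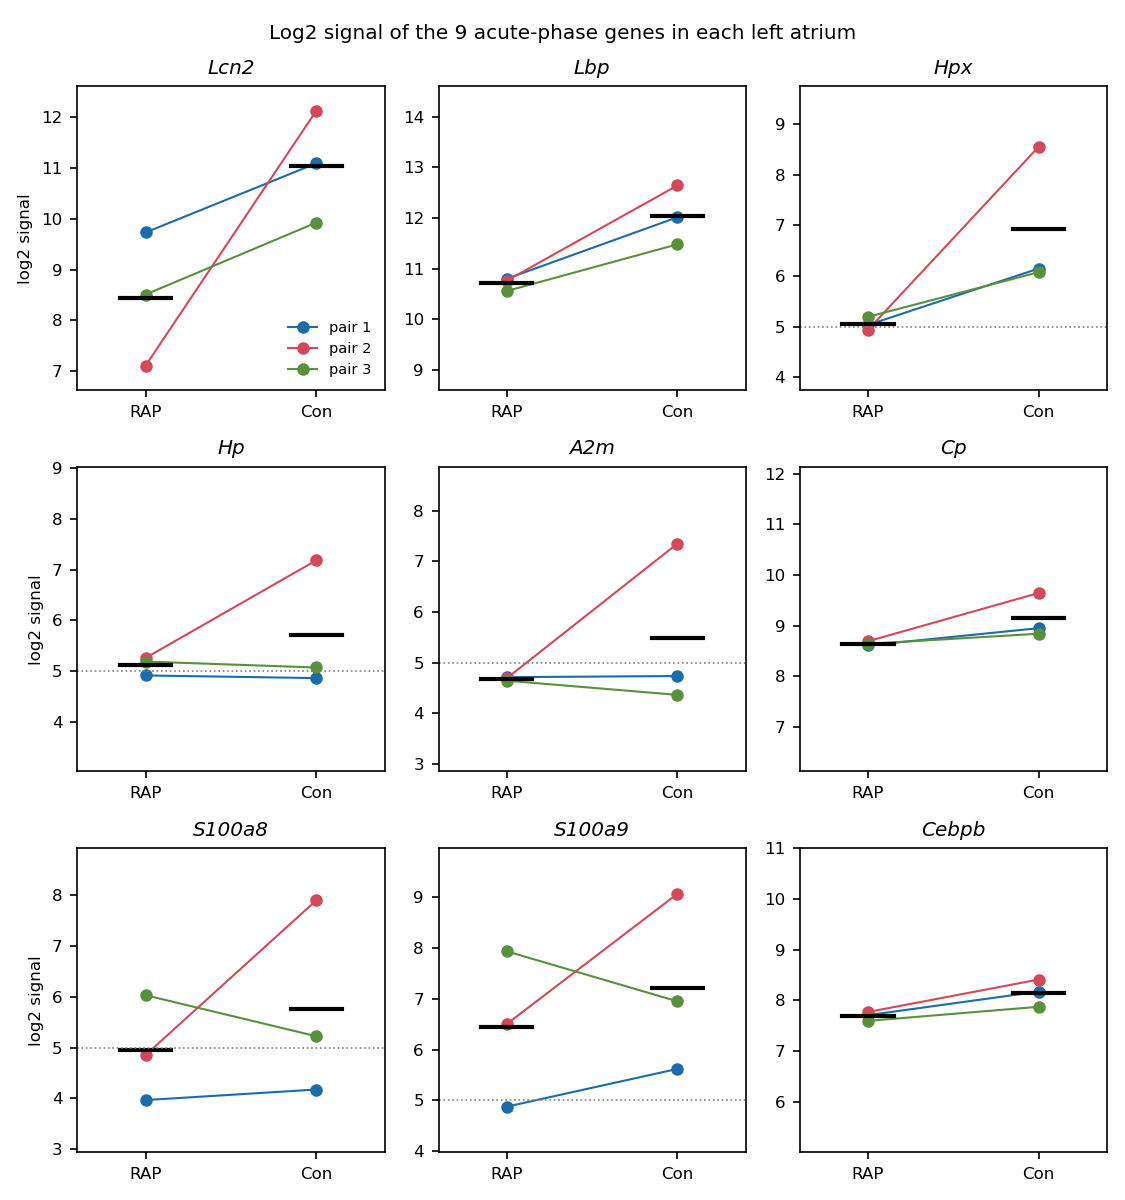
Log2 signal (vertical axis, 6 units in every panel) of the 9 genes in the RAP and Con left atria. Each point is 1 atrium, coloured lines join the rats of a pair, black bars are group means, and the dotted line is the detection limit of 5. The points of Lcn2, Lbp, Hpx, Cp and Cebpb do not overlap between groups, while Hp, A2m, S100a8 and S100a9 stand out in Con 2.

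Over the 9 genes, then, there were 2 forms of pattern. In Lcn2, Lbp, Hpx, Cp and Cebpb every RAP atrium lay under every Con atrium, a form met by 7.85% of all genes. It follows that RAP was lower in each of the 3 pairs, which held for 14.1% of all genes. Of these 5, 3 had been chosen for their difference, and of the 6 that had not, 2 took this form. For comparison, 3.45% of all genes passed both limits downward and 2.94% upward, and of the 5 genes tested 1, Cebpb, passed downward and 0 upward. The median difference of those 5 was -0.58, and that of all genes -0.0074. The smallest adjusted p of any probe set was 0.756 in limma, and 1275 of the 19907 had an unadjusted p under 0.05.

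The largest of the pair differences was that of pair 2 for all 9 genes. The median over the 8 genes other than A2m was -0.60 in pair 1, -2.25 in pair 2 and -0.24 in pair 3, but 3 of these had been chosen for their fall. Over the 6 genes not chosen, A2m among them, it was -0.27, -2.25 and 0.20, so the sign in pair 3 rested on the chosen genes. The medians over all genes were -0.0025, -0.019 and 0.013. Con 2 was also the atrium with the highest signal for all 9 genes, as it was for 19.2% of all genes. By how far Con 2 exceeded the next highest atrium on the log2 scale, the genes tested differed. Hp ranked 15, S100a8 16, S100a9 48, Cp 182 and Cebpb 762 among the 11237 genes. RAP 2, the partner of Con 2, was the lowest of the 6 atria for Lcn2 and Hpx only.

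**Figure D2:**
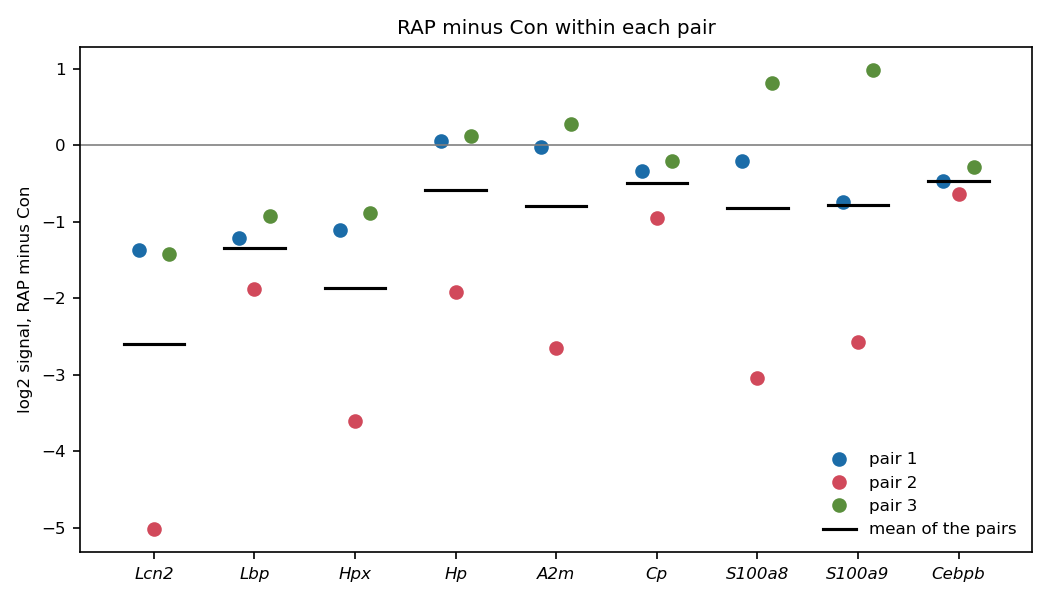
RAP minus Con in log2 signal (vertical axis) within pairs 1, 2 and 3 (points) and their mean (black bars) for the 9 genes. Pair 2 is the lowest point for each gene, from -0.64 for Cebpb to -5.02 for Lcn2, and in pair 3 Hp, A2m, S100a8 and S100a9 lie above 0.

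With Con 2 left out, the sign could not change for Lcn2, Lbp, Hpx, Cp and Cebpb, whose groups did not overlap. For them only the size of the difference is informative. The mean differences then stayed negative for Lcn2 (-2.06), Lbp (-1.04), Hpx (-1.05), Cebpb (-0.33) and Cp (-0.25), and were positive for Hp (0.15), S100a8 (0.25) and S100a9 (0.15). The median over the 8 genes other than A2m was -0.29 without Con 2, against -0.80 with it. These medians include Lcn2, Lbp and Hpx, chosen for their fall, and of the genes tested only Cebpb and Cp stayed negative. Without Con 3, the lowest of the Con atria for Lcn2, Lbp, Hpx, Cp and Cebpb, the differences were larger: -3.16 for Lcn2, -1.62 for Lbp, -2.29 for Hpx, -0.60 for Cebpb and -0.65 for Cp, which then passed both limits (limma, unadjusted p = 0.025). They were -0.90 for Hp, -1.09 for S100a8 and -0.91 for S100a9, none of which passed.

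**Figure D3:**
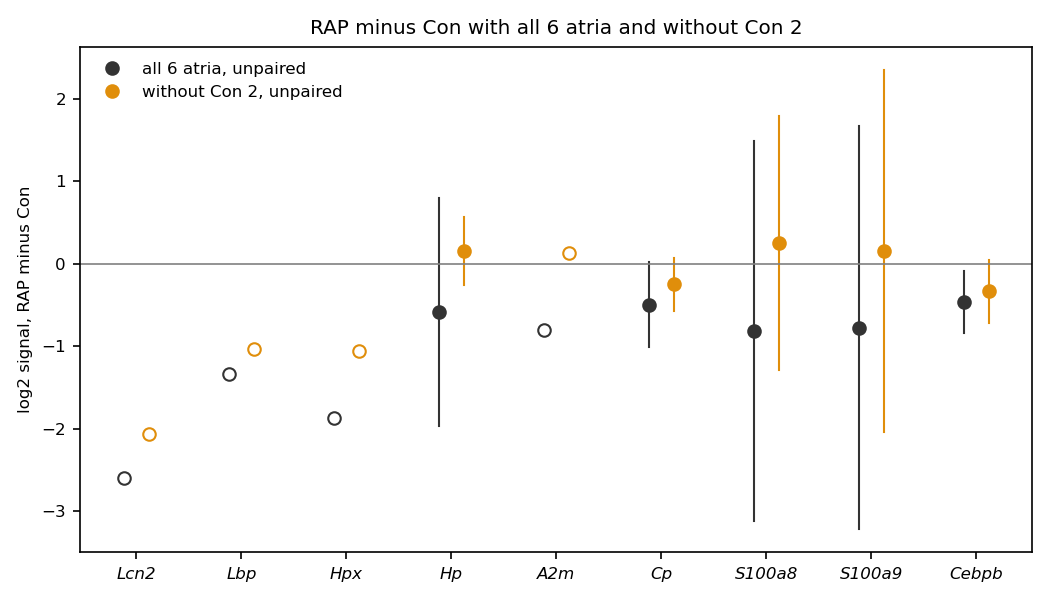
RAP minus Con in log2 signal (vertical axis) fitted without the pair, for all 6 atria (black) and without Con 2 (orange). Lines are 95% intervals from limma, and open points are the 3 genes chosen for their difference and A2m, given without intervals. Hp, S100a8 and S100a9 move from below to above 0, and the intervals of Hp, Cp, S100a8 and S100a9 include 0 in both fits. The point of A2m also moves above 0, but without Con 2 it rests on no detected value.

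The wider acute-phase set was examined through 5 lists of pathway genes, 116 in all, of which 83 passed the detection limit. Of these 83, 12 (14.5%) passed both limits downward and 4 upward, against 3.45% and 2.94% of all genes, and their median difference was -0.21. In 41 of the 83 (49.4%) Con 2 was the highest atrium. Of the 83, 8 exceeded 5 in 1 of the groups only, and among the other 75, 12 were lower and 3 higher. The lists had been drawn up with results of these arrays known, so the counts are a description. Fitted without the pair and without Con 2, 9 of the 12 remained past the limits, and 6 of the 12 (Ftl1, Ly96, Nfkbiz, Pla2g2a, Serping1 and Tlr4) did so whichever of the 6 atria was left out.

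Among other acute-phase proteins, 3 of 21 passed downward, 0 upward, and 11 were highest in Con 2. Complement C3, the hub of the complement cascade, read 10.85, 8.58 and 7.82 in the RAP atria and 11.32, 10.82 and 11.07 in the Con atria. RAP 1 was therefore within the range of the controls, and C3 was -1.99 on average (SE 0.54, limma, unadjusted p = 0.016, adjusted p = 0.76), a call lost without RAP 2, RAP 3, Con 1 or Con 3, with differences from -2.87 to -1.35. Pla2g2a, a secreted phospholipase A2, read 12.45, 11.71 and 11.61 in the RAP atria and 12.79, 12.79 and 12.72 in the Con atria, and fell by 0.85 (SE 0.20). Serping1, which encodes the C1 inhibitor, read 12.05, 11.40 and 11.30 in the RAP atria and 12.69, 12.54 and 12.05 in the Con atria and fell by 0.84 (SE 0.16). In these 3 genes Con 1, not Con 2, was the highest atrium.

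A further 4 proteins of that list, named after their values were seen, were like A2m in being highest in Con 2, as were 11 of the 21 in all. Others were not: Fgg was highest in Con 3 and Vnn1 in RAP 2. Serpina3n, a serpin of the antichymotrypsin group, read 6.35, 5.18 and 5.88 in the RAP atria and 6.39, 9.40 and 5.86 in the Con atria. Kng1 read 4.22, 3.84 and 3.73 in the RAP atria and 4.79, 7.19 and 4.10 in the Con atria, and Kng2 read 4.86, 4.44 and 4.47 in the RAP atria and 5.11, 7.62 and 4.52 in the Con atria. Kininogen genes of the rat are closely alike in sequence, so these 2 probe sets may share signal. Lrg1, a leucine-rich glycoprotein induced in inflammation, read 6.84, 6.97 and 7.36 in the RAP atria and 6.77, 8.78 and 6.81 in the Con atria. Serpina3n and Lrg1, above 5 in every atrium, did not pass the limits. Kng1 exceeded 5 in Con 2 alone and Kng2 in Con 1 and Con 2 alone, so they are given without a test. Orm1, the alpha-1-acid glycoprotein gene, was above 5 in Con 2 alone, at 5.37, and 8 more of the list, Crp, Apcs, Fga, Fgb and Serpina1 among them, stayed under 5 in all 6 atria.

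Proteins that the liver makes less of in the acute phase gave 7 measured genes, with 1 past the limits downward and 3 upward, of which Alb was detected in RAP 3 alone. Tf, which encodes transferrin, read 10.83, 9.27 and 9.80 in the RAP atria and 11.32, 11.06 and 10.87 in the Con atria, and fell by 1.12 (SE 0.27), a call lost without RAP 2, RAP 3 or Con 1 (differences from -1.55 to -0.77 over the 6 such fits). Ttr, a thyroxine and retinol carrier, read 7.40, 8.19 and 7.24 in the RAP atria and 6.23, 6.76 and 7.27 in the Con atria, 0.86 higher (SE 0.32). Its partner Rbp4 read 6.43, 5.88 and 7.70 in the RAP atria and 5.62, 5.60 and 6.90 in the Con atria, 0.63 higher (SE 0.17). The Alb signal passed 5 in RAP 3 alone, where it was 6.24, so nothing is read from its call. The upward calls of Ttr and Rbp4 were both lost without RAP 1, RAP 2, Con 1 or Con 2, and that of Rbp4 also without RAP 3 or Con 3, with differences in the 6 fits from 0.57 to 1.12 for Ttr and from 0.12 to 1.06 for Rbp4.

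Of the cytokine and receptor genes upstream, 2 of 16 passed downward and 0 upward. Tnfrsf1a, a receptor of tumour necrosis factor, fell by 0.73 (SE 0.26), with 9.55, 9.10 and 9.57 in the RAP atria and 10.51, 10.27 and 9.62 in the Con atria, a call lost without RAP 2, Con 1 or Con 2 (differences from -0.98 to -0.53). Il17ra, a receptor subunit for IL-17, fell by 0.57 (SE 0.19), with 8.06, 8.40 and 8.26 in the RAP atria and 8.88, 9.15 and 8.41 in the Con atria, a call lost without RAP 1, RAP 3, Con 1 or Con 2 (differences from -0.77 to -0.40). Il6 itself was under 5 in every atrium but Con 2, at 3.75, 3.53 and 3.95 in the RAP atria and 3.92, 5.24 and 3.86 in the Con atria. Its difference of -0.59 thus rests on 1 detected value and is given without a test. The differences of Il6st, the signalling receptor of the IL-6 family (0.12, SE 0.14), and Il1r1, the IL-1 receptor (-0.43, SE 0.17), did not pass.

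Among transcription factors and feedback genes, 3 of 21 passed, all downward. Socs3, a STAT3 target that restrains IL-6 signalling, read 6.72, 6.79 and 7.09 in the RAP atria and 7.60, 8.80 and 7.33 in the Con atria and fell by 1.04 (SE 0.36). Con 2 was again highest, but the groups did not overlap, and without Con 2 the difference was -0.60 and still past the limits. The Socs3 call was lost without RAP 1 or RAP 2 (differences from -1.33 to -0.60). Nfkbiz encodes an inducible nuclear partner of NF-kB that is required in mouse cells for the induction of Lcn2. It read 6.86, 6.67 and 7.43 in the RAP atria and 7.78, 8.11 and 7.48 in the Con atria, a fall by 0.80 (SE 0.29). Cebpd, a relative of Cebpb, read 7.59, 7.93 and 8.0 in the RAP atria and 8.12, 8.82 and 8.11 in the Con atria. Cebpd fell by 0.51 (SE 0.19), a call kept only when Con 3 was left out and, without Con 2, down to -0.27. Stat3 (-0.16, SE 0.21) and Cebpa (-0.09, SE 0.19) did not pass.

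Among receptors and partners of the 9 proteins, 3 of 19 passed downward and 1 upward. The lipopolysaccharide receptor, to which Lbp delivers its ligand, is formed by Tlr4 and Ly96 (MD-2). Ly96 read 7.44, 6.80 and 7.15 in the RAP atria and 8.46, 8.57 and 7.54 in the Con atria and fell by 1.06 (SE 0.29). Tlr4 read 6.93, 6.56 and 7.16 in the RAP atria and 7.64, 7.74 and 7.41 in the Con atria and fell by 0.72 (SE 0.21). In both, no RAP atrium reached a Con atrium, although in pair 3 the 2 rats were close. Cd14, which takes part in the same handover, read 9.03, 7.97 and 9.72 in the RAP atria and 9.69, 10.39 and 8.80 in the Con atria and did not pass (-0.72, SE 0.64). Ftl1, the ferritin light chain that stores iron, read 11.94, 11.87 and 12.30 in the RAP atria and 12.51, 12.82 and 12.49 in the Con atria and fell by 0.57 (SE 0.19). Hspa5, a chaperone of the endoplasmic reticulum, was 0.42 higher with RAP (SE 0.14), a call kept only when RAP 1 was left out (differences from 0.18 to 0.63). The heme and hemoglobin clearing genes Lrp1 (-0.39, SE 0.40), Cd163 (-0.32, SE 0.56) and Hmox1 (-0.93, SE 0.66) and the iron exporter Slc40a1 (-0.21, SE 0.18) did not pass.

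**Figure D4:**
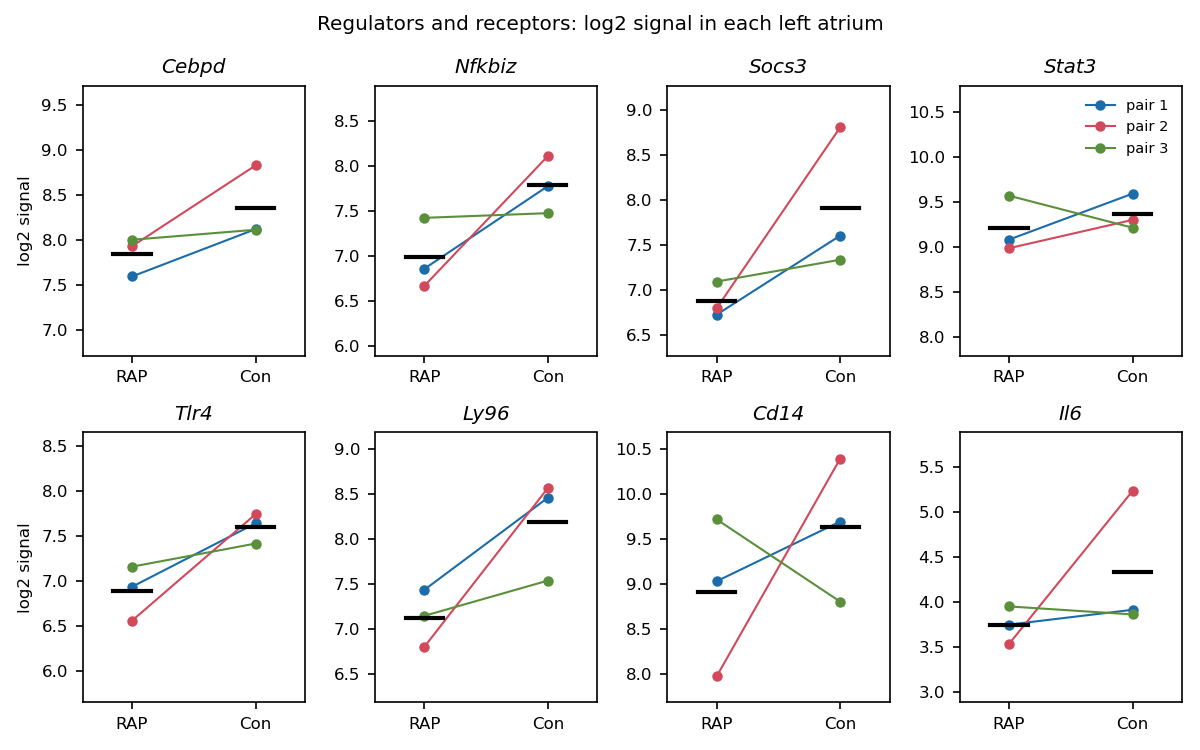
Log2 signal (vertical axis, 3 units in every panel) of 8 regulators and receptors in the RAP and Con left atria. Points are single atria, coloured lines join pairs, and black bars are group means. The groups do not overlap for Cebpd, Nfkbiz, Socs3, Tlr4 and Ly96, overlap for Stat3 and Cd14, and Il6 stands out in Con 2 alone at 5.24.

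Macrophage markers moved with part of the pattern. Con 2 had the highest signal for 17 of 19 macrophage markers, whose mean deviation from each gene's 6-array mean was -0.36, -0.69 and 0.23 in the RAP atria and 0.15, 1.1 and -0.44 in the Con atria. Vsig4, a complement receptor of resident macrophages, was the only one of the 19 past the limits, at -1.50 (SE 0.49), and without Con 2 it was -0.76, a call lost without any 1 of the RAP atria (differences from -1.96 to -0.76). Con 2 was also highest for 8 of 11 fibroblast markers. In pair 3 the macrophage markers were higher with RAP (median 0.72), and there Lcn2, Lbp, Hpx, Cp and Cebpb were lower with RAP and S100a8 and S100a9 higher. The part of macrophages and fibroblasts in these differences was not tested.

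Of 21 neutrophil genes, 10 were detected and 0 passed in either direction (median difference 0.03). Their mean deviation was -0.16, -0.12 and 0.27 in the RAP atria and -0.27, 0.33 and -0.05 in the Con atria, so that the same 2 atria were highest, Con 2 and RAP 3, as for S100a8 and S100a9. By single genes, Con 2 was the highest atrium for 3 of the 10. These were Csf3r, the receptor of the granulocyte growth factor (7.61), Cxcr2, a neutrophil chemokine receptor (5.83), and Mmp9 (6.34). The others were highest in a RAP atrium, with Mpo, Ngp and Mmp8 highest in RAP 3. The granule genes Mpo (4.98, 5.30 and 5.73 in the RAP atria and 4.91, 5.01 and 4.89 in the Con atria) and Elane (5.21, 5.29 and 5.03 in the RAP atria and 5.13, 5.24 and 5.12 in the Con atria) stayed near the detection limit and did not pass, and Ctsg, Camp, Ltf, Fpr1, Cxcr1 and Defa5 were below it throughout. The part of blood neutrophils in the S100a8 and S100a9 signal was not tested.

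Most liver markers were dim: 9 of 13 hepatocyte genes, Apob, Cps1 and Ahsg among them, were under 5 in all 6 atria, and 1 had no probe set of its own. Cyp2e1 (5.34 in Con 1 to 7.77 in RAP 3) and Hnf4a (5.14 in RAP 2 to 5.35 in RAP 1) exceeded 5 in all 6 atria, and Alb did in RAP 3 alone. The mean deviation of these measured genes was highest in RAP 3 (1.07). Of 14 markers of the mesothelium and epicardium, the atrial covering, 4 were past the limits downward (Prg4, Tbx18, Wt1 and Msln) and 0 upward. In 3 of these 4 no RAP atrium reached a Con atrium. The list's median difference was -0.56, or -0.82 without Con 2. By pair it was -0.92, -0.26 and -0.51, smallest in pair 2, where the 9 genes differed most. Krt19 (0.06), Krt7 (0.02), Rspo1 (0.11) and Gpm6a (0.61) had positive differences. None of the 14 was highest in Con 2, and their mean deviations were -0.24, -0.39 and -0.21 in the RAP atria and 0.71, -0.25 and 0.37 in the Con atria. Of 14 adipocyte markers 5 passed the limits upward and 0 downward (median difference 0.44), and they were highest in RAP 3 (mean deviation 1.03). Erythroid markers were highest in Con 3 (1.95). Atrial cardiomyocyte markers, by which the tissue label was checked, gave 11 detected genes of 13, all above 5 on every array, while Bmp10 was under 5 throughout. Of the 11, 2 (Pam and Myh6) passed the limits upward and 0 downward, with a median difference of 0.42. Their mean deviations were 0.13, 0.38 and 0.0087 in the RAP atria and -0.20, -0.32 and -0.0022 in the Con atria. Ventricular cardiomyocyte markers set Con 3 apart (mean deviation 1.34): Myl2, the ventricular myosin light chain, was 4.89, 4.44 and 4.37 in the RAP atria and 4.33, 4.28 and 8.60 in the Con atria. What share these cell populations had in the 9 genes' differences was not tested.

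**Figure D5:**
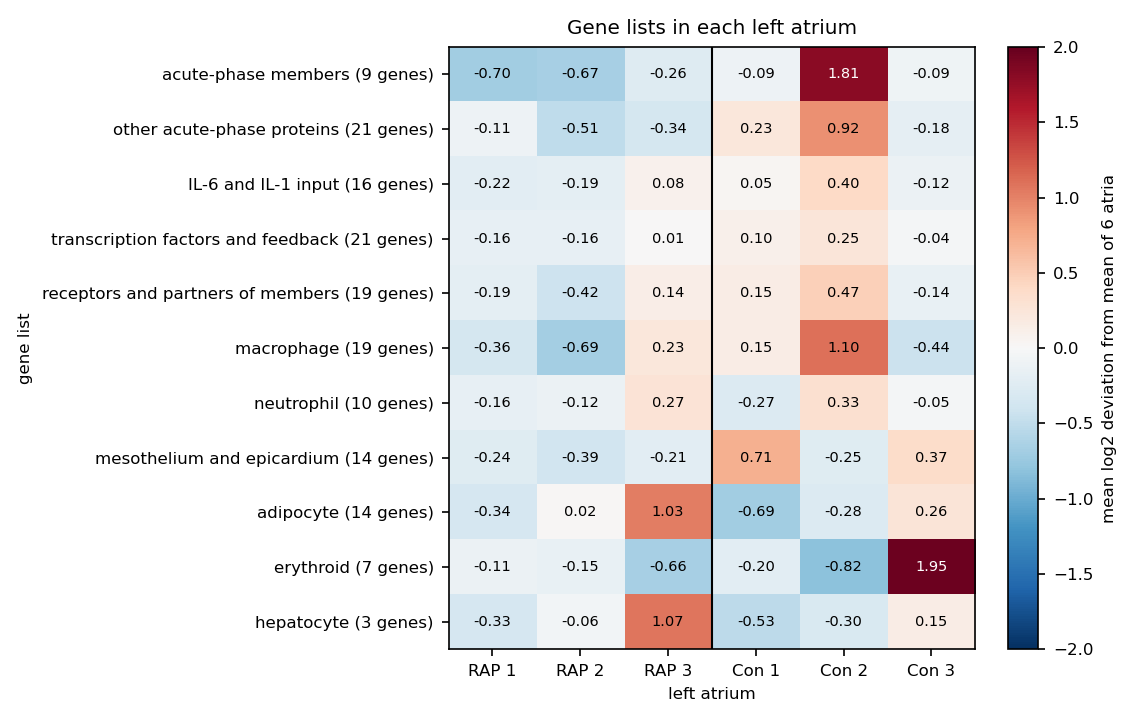
Mean deviation of each list's detected genes from their 6-atrium means, in log2 units (colour and printed value), for each RAP and Con left atrium (columns) and gene list (rows, number of genes in brackets). The 9 genes reach 1.81 in Con 2, the other acute-phase proteins 0.92 and the macrophage markers 1.1, while mesothelial markers are at -0.25 there.

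The genes whose pattern over the 6 arrays was most like that of each member were picked by Pearson's r, with the 2 highest named. For Lcn2 these were Atf6b (r = 1.00, rho = 0.94) and Qpctl (r = 0.99, rho = 1.00), for Lbp Mgst2 (r = 1.00, rho = 0.94) and Rpl35 (r = 0.99, rho = 1.00), and for Cebpb Rxra (r = 1.00, rho = 1.00) and Mtf1 (r = 0.99, rho = 1.00). Those of Hpx were Fam43a (r = 1.00, rho = 0.89) and Cd302 (r = 1.00, rho = 0.94), and those of Cp were Vsig4 (r = 0.99, rho = 0.94) and Zdhhc18 (r = 0.99, rho = 0.83). Hp was most like Gna13 (r = 0.99, rho = 0.77) and Ass1 (r = 0.99, rho = 0.89), and A2m most like Acot8 (r = 0.99, rho = 0.43) and Chrdl2 (r = 0.99, rho = 0.26). S100a8 was most like Slc16a7 (r = 1.00, rho = 1.00) and Evi2a (r = 0.99, rho = 1.00), and S100a9 most like Adamts5 (r = 0.99, rho = 1.00) and Snx24 (r = 0.99, rho = 1.00). With 6 arrays and 1 of them high, as for A2m, a high r with a low rho rests mainly on Con 2. Ass1, an enzyme of arginine synthesis, was the most marked of these, at 5.89, 6.09 and 6.21 in the RAP atria and 5.89, 10.14 and 6.08 in the Con atria. Among the 9 genes themselves, Lbp and Cebpb (r = 0.98, rho = 0.94) and Hpx and Cp (r = 0.99, rho = 0.83) ran together, while Lcn2 and S100a9 shared less (r = 0.24, rho = 0.26), all over the same 6 arrays.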

How the data were processed

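One array per rat measured LA RNA of 3 RAP and 3 Con rats. The values were deposited by the authors as log2 signals, made by robust multiarray averaging (RMA, which corrects background, normalizes by quantiles and summarizes probes) with default parameters in Partek software. Its version and a genome build are not given in the sources used here. No further normalization was applied. Gene symbols came from the platform annotation (15310 probe sets with 1 symbol, 323 with several, 13581 with none), and where a gene had several probe sets the brightest on average stood for it.

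Probe sets above a log2 signal of 5 on at least 1 array (19907) were tested in R 4.3.3 with limma 3.58.1 on a model of pair (the block) and group, with moderated variances (2 residual and 2.76 prior degrees of freedom). The Benjamini-Hochberg adjustment ran over all of them. The limits (fold change above 1.3, unadjusted p below 0.05) follow the study's methods, as does the use of pairs: paired rats had shared surgery, recovery and pacing times. Which RAP rat went with which Con rat is not stated, so rats of equal replicate number were matched. The deviations of arrays so matched from their group means correlated at 0.22, -0.24 and -0.32. The study reported clear similarity within its pairs, which these values do not show for pairs 2 and 3, so the match is uncertain. Fits that leave out 1 array were made without the pair. Exact permutation of 3 against 3 arrays cannot go below p = 0.1, nor sign changes of 3 pairs below 0.25. The number of arrays limits the precision. The fit was tested on simulated data. The members, the gene lists (17) and the alternatives (18) were chosen with earlier results of these data known. The genes named are the 9 members, up to 4 of each list past the limits, a fixed set of pathway genes, and the 2 genes most like each member. Further genes of the lists were named after their values were seen, among them Serpina3n, Kng1, Kng2, Lrg1, Csf3r, Cxcr2, Cyp2e1, Krt19, Gpm6a and Myl2. The platform table pairs no probe set with Slc22a17, the Lcn2 receptor, alone, so it is not analysed here.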

Additional observations from a re-analysis of the deposited data

How the results depend on the processing

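The members' directions were kept under the other scalings, filters, tests and probe set rules, and only leaving out arrays turned any. Over the fits that left out a pair or a single array, the difference ran from -3.24 to -1.39 for Lcn2, from -1.62 to -1.04 for Lbp, from -2.36 to -0.997 for Hpx, from -0.60 to -0.33 for Cebpb, from -0.65 to -0.25 for Cp, from -1.01 to 0.15 for Hp, from -1.36 to 0.13 for A2m, from -1.63 to 0.30 for S100a8 and from -1.66 to 0.15 for S100a9. Without pair 2 it was 0.08 for Hp, 0.13 for A2m, 0.30 for S100a8 and 0.12 for S100a9, without Con 2 0.15, 0.13, 0.25 and 0.15, and without RAP 1 0.0066 for S100a9. For A2m neither fit held a detected value, so its sign there is not resolved. Cebpb lost its call without pair 1 (-0.46) or pair 2 (-0.37). Array weights brought Cp (-0.40, unadjusted p = 0.017 in limma) and S100a9 (-0.84, unadjusted p = 0.048 in limma) past the limits, so that 3 members passed, and no filter brought Cp (-0.50, unadjusted p = 0.046 in limma), making 2. Leave-outs gave from 0 to 3, with S100a9 at -1.66 without pair 3 and Cp at -0.65 without Con 3 or pair 3.

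Without the pair as a block, Cebpb still passed (limma, unadjusted p = 0.024) and no other member's call changed, while the pathway genes past the limits upward numbered 2 in place of 4. Of all genes, 388 were lower and 330 higher. With array weights these were 1489 and 1161, with the methods' t-test 115 and 119, and in the leave-outs from 106 to 1422 and from 58 to 1066. Of the pathway genes 12 were lower and 4 higher. Array weights gave 27 lower, the methods' t-test 1 lower and 0 higher, and the leave-outs from 5 to 30 lower and from 0 to 7 higher. The methods' t-test left 0 probe sets with an adjusted p under 0.05. Why array weights and pair 3 move the counts was not tested. Hp, A2m and S100a8, and Hpx with RAP, lay near or under a log2 signal of 5, where differences are poorly resolved.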
